A study of Mus musculus with 12 samples.

Results

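Inhibitory checkpoint receptors are surface proteins that restrain lymphocytes. The 9 genes considered here are Ctla4, Pdcd1, Lag3, Havcr2, Tigit, Btla, Cd160, Cd274 and Cd200, taken from the arrays by gene name or an older alias and represented by the brightest probe of each gene. A probe was found for 8 of the 9, and all 8 were well above background on at least 3 arrays and so entered the fit, among 13604 named genes of 15544 features. No probe matched Tigit or its alias Vstm3, and Tigit was not analysed here. RNA came from regulatory T cells (Treg), CD4 T cells that keep other immune cells in check, sorted in 4 groups with 3 arrays per group. IL10+ and IL10- tumour Treg came from VERT-X C57BL/6 mice, in which EGFP reports transcription of Il10, and were sorted as CD4 T cells (CD45+ CD11b low CD3+ CD4+) that were CD25+ and CD120b+ or CD120b low. Total tumour Treg came from FoxP3-EGFP C57BL/6 mice and were gated on EGFP after the same CD4 T cell gate. The tumours were subcutaneous MC38, a colon carcinoma line of the same mouse strain, taken at 2 weeks and pooled before sorting. Spleen Treg came from FoxP3-EGFP C57BL/6 mice without tumours, sorted like the total tumour Treg. Each group thus stands for 3 separate experiments on pooled tumours or on spleens, and no age was given in the sources used here.

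Most checkpoint receptors bind a ligand on an antigen-presenting cell or a tissue cell. Some recruit phosphatases through tyrosine motifs in their tails, which dampens signalling from the T cell receptor. Treg themselves carry several checkpoint receptors. Ctla4 is both a marker and a tool of Treg, since it strips its ligands from antigen-presenting cells. Cd274 and Cd200 act the other way round, as ligands that engage receptors on other cells, and Btla and Cd160 share 1 ligand, the TNF receptor family member Tnfrsf14.

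For 5 receptors every tumour array lay on the same side of every spleen array below. These were Ctla4, Pdcd1 and Havcr2, higher in tumour, and Btla and Cd160, higher in spleen. The share of all features that do so was not computed. For a single tumour group against spleen, 57.8% to 65.7% of all features did not overlap. The promoters of these 5 receptors are shown to set both directions side by side. Each runs from 250 bases before to 50 bases after the RefSeq start of the gene (assembly GRCm38.p6) and is read 5′ to 3′ on the gene's own strand. A promoter was listed for 8 of the 9 genes, and none for Lag3. Cd160 has a pair of starts, of which the first listed is shown. Capitals mark matches, on either strand, to the NFAT core GGAAA, the AP-1 motif TGANTCA, the TCF/LEF core CTTTG and the RUNX motif TGTGGT. Overlapping matches of different motifs were counted for each motif, and TGANTCA reads the same on both strands and was counted once per place. The windows are chr1:60908775-60909074 (+) for Ctla4, chr1:94052504-94052803 (-) for Pdcd1 and chr11:46454681-46454980 (+) for Havcr2. Those of the other two are chr16:45224087-45224386 (+) for Btla and chr3:96814472-96814771 (-) for Cd160.
Ctla4: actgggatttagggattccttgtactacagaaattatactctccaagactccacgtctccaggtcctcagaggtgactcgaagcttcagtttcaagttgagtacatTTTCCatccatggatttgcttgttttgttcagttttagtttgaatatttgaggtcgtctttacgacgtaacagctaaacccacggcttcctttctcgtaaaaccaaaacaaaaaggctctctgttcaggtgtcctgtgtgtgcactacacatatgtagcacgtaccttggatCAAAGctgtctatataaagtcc
Pdcd1: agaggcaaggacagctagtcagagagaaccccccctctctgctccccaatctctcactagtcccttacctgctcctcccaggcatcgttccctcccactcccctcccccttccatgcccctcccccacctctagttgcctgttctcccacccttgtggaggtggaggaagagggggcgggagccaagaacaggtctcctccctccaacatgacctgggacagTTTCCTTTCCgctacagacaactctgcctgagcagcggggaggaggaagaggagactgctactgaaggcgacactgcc
Havcr2: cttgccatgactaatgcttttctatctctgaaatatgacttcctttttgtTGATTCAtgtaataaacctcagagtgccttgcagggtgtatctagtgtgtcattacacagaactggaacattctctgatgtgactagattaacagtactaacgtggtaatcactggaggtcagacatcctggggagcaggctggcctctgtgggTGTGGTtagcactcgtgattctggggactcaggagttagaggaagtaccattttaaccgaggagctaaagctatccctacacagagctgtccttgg
Btla: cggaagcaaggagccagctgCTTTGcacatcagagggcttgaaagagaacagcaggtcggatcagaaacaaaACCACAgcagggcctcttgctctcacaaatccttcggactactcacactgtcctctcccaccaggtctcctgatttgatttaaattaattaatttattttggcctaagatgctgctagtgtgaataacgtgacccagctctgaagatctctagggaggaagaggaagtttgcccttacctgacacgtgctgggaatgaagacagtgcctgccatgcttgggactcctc
Cd160: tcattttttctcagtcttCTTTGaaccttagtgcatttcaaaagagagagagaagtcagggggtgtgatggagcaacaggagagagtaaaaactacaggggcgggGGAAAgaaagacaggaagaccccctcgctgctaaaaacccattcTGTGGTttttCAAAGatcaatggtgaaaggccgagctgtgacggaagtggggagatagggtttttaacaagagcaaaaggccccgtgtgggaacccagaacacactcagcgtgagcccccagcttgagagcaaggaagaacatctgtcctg
The Ctla4 promoter held 1 NFAT core and 1 TCF/LEF core, and that of Pdcd1 held 2 NFAT cores. The Havcr2 promoter held 1 AP-1 motif and 1 RUNX motif. The Btla promoter held 1 TCF/LEF core and 1 RUNX motif, and that of Cd160 held 1 NFAT core, 2 TCF/LEF cores and 1 RUNX motif. These short motifs are common. Over 32851 promoters of the same length, 61.3% held the NFAT core, 53.9% the TCF/LEF core, 16.8% the RUNX motif and 7.81% the AP-1 motif. A match describes the letters and is not evidence of binding.

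Levels below are log2 of the processed signal minus the 75th percentile of that array, so that 0 is the signal of a probe at that percentile. Differences are on the same log2 scale with their standard error (SE), and adjusted p-values come from limma's moderated test, two-sided, over all 15544 features. The threshold for a call was an adjusted p below 0.05. Over the 12 arrays 42.2% to 65.4% of probes lay well above background, and the 75th percentile ranged from 92.3 to 606 signal units. The sort was visible in Il10, at 3.71 to 5.47 in IL10+ and -0.39 to 0.47 in IL10- Treg. Even so, Il10 was not called between the fractions (4.63 ± 1.01, adjusted p = 0.343). A gene not called in that comparison is therefore not shown to be equal in the fractions. In total tumour Treg Il10 was at 5.74, 5.02 and 5.14. Foxp3 was well above background on all 6 arrays of VERT-X mice and on none of the 6 of FoxP3-EGFP mice, so it could not check the label of the latter. Of 5 Treg markers (Foxp3, Il2ra, Ikzf2, Tnfrsf18 and Cd4), 5 were well above background on every VERT-X array, 4 on every total tumour array and 3 on every spleen array. Spleen replicate 2 stood apart from its group. Its Il2ra, which encodes CD25, was not well above background at -3.90, against 0.72 and 1.27 in the other spleen arrays, and its Il10 was at -3.61 against 0.84 and 0.69. The receptors' differences from spleen, the list and marker counts against spleen and the profile comparison are therefore also given without that array.

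**Figure D1:**
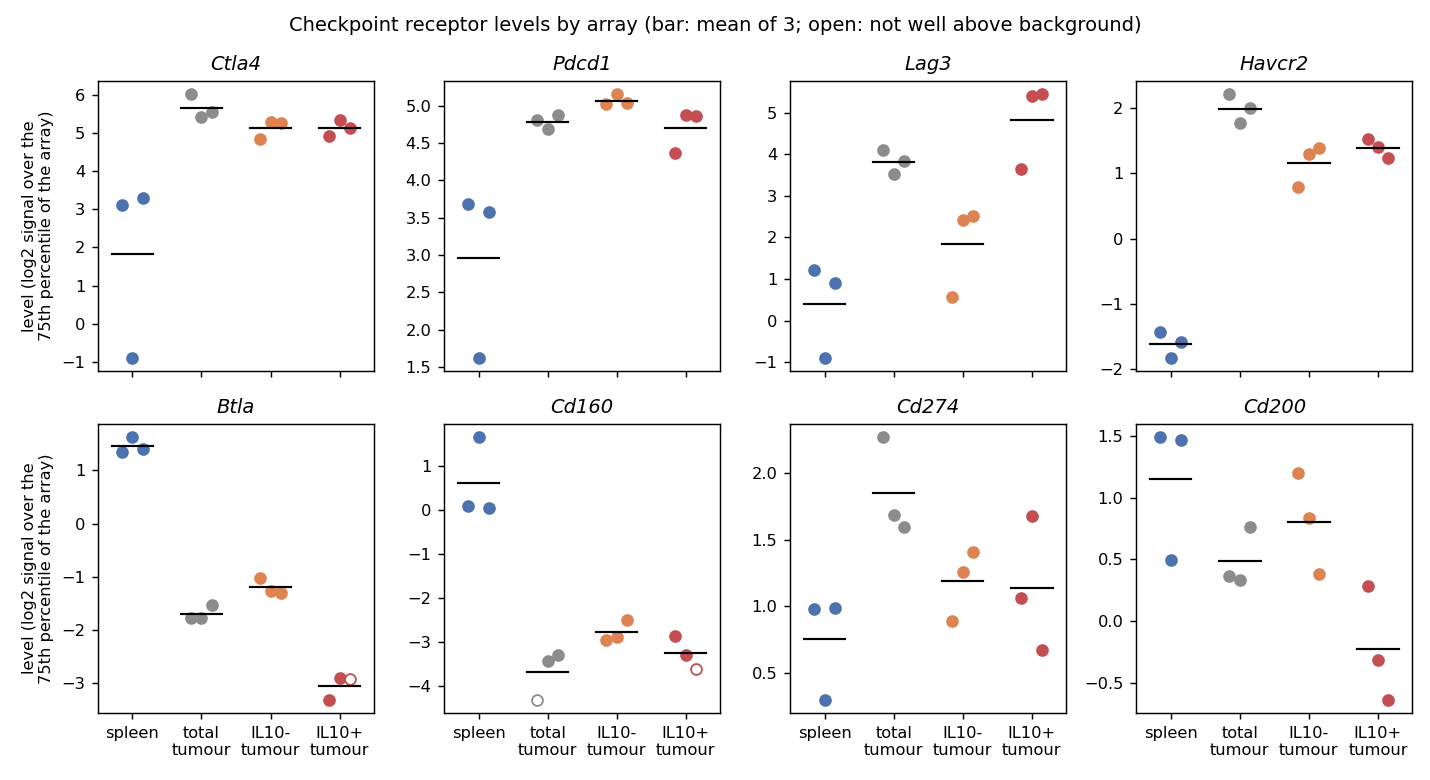
Level of each of the 8 measured checkpoint receptors on every array (y axis: log2 signal over the 75th percentile of the array) in the 4 groups of 3 arrays (x axis). Points are arrays, bars are group means, and open points are not well above background. All 9 tumour arrays lie above all 3 spleen arrays for Ctla4, Pdcd1 and Havcr2 and below them for Btla and Cd160, and spleen replicate 2 is the lowest spleen array for Ctla4, Pdcd1 and Lag3.

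Against spleen Treg, total tumour Treg had higher Ctla4, Pdcd1, Lag3, Havcr2 and Cd274 and lower Btla and Cd160. Of the 8 measured genes 7 were called, 5 higher and 2 lower, where 42.3% of all features were called, 22.0% higher and 20.3% lower. The groups did not overlap for 7 of the 8, against 65.7% of all features. The median difference of the 8 genes was 1.46, against -0.013 over all features. Both groups come from FoxP3-EGFP mice and share the gate, and they differ in tissue and in whether the mouse bore a tumour. In bulk samples such as these, fewer cells that carry a transcript and less transcript per cell cannot be told apart.

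Ctla4 competes with the co-stimulatory receptor Cd28 for Cd80 and Cd86. Its level was 6.02, 5.42 and 5.54 in total tumour Treg and 3.12, -0.89 and 3.29 in spleen Treg. It was also high in both VERT-X fractions, at 4.92, 5.33 and 5.12 in IL10+ and 4.84, 5.29 and 5.27 in IL10- Treg. Every tumour array lay above every spleen array, and the low spleen value was replicate 2. Ctla4 rose in total tumour against spleen Treg by 3.82 ± 0.89 (adjusted p = 0.00668). Without spleen replicate 2 the difference was 2.46 (adjusted p = 9.87e-05). The probe lies at chr1:60859210-60859269 (+) in mm8, the build of the array annotation.

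Pdcd1 encodes PD-1, the receptor of Cd274. It was at 4.81, 4.68 and 4.87 in total tumour Treg and at 3.69, 1.62 and 3.57 in spleen Treg. The VERT-X fractions lay in the range of the total tumour Treg or next to it, with 4.37, 4.87 and 4.86 in IL10+ and 5.02, 5.15 and 5.03 in IL10- Treg. The low spleen value again belonged to replicate 2, and no tumour array reached down to any spleen array. The rise from spleen to total tumour Treg was 1.82 ± 0.45 (adjusted p = 0.00933), and 1.15 (adjusted p = 0.00136) without that array. The probe is at chr1:95868893-95868952 (-), mm8.

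Lag3, a relative of Cd4 that binds MHC class II, varied most among the tumour groups. Its level was 4.11, 3.52 and 3.83 in total tumour Treg and 1.21, -0.89 and 0.90 in spleen Treg. In IL10+ Treg it was 3.65, 5.41 and 5.44, and in IL10- Treg 0.58, 2.42 and 2.50. Replicate 1 was the lowest of both fractions, and replicate 1 of the IL10- fraction fell within the spleen range. Lag3 rose in total tumour against spleen Treg by 3.42 ± 0.70 (adjusted p = 0.00353). The difference was 2.77 (adjusted p = 0.0122) once spleen replicate 2 was left out. The probe spans chr6:124870171-124870467 (-), mm8, or 297 bases where the Ctla4 probe spans 60, so it bridges a gap in the genome alignment.

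Havcr2 encodes TIM-3, a receptor of T cells and of myeloid cells. It was at 2.21, 1.77 and 2.00 in total tumour, 1.52, 1.40 and 1.23 in IL10+, 0.79, 1.30 and 1.39 in IL10- and -1.43, -1.83 and -1.58 in spleen Treg. The spleen arrays agreed closely here and lay far below every tumour array. The rise in total tumour against spleen Treg was 3.61 ± 0.20 (adjusted p = 2.2e-06), and 3.5 (adjusted p = 1.24e-05) without spleen replicate 2. A further Havcr2 probe, at chr11:46299842-46299901 beside the main one at chr11:46324571-46324630 (+), mm8, was not well above background on any spleen array. By that probe Havcr2 was at least 15.3-fold higher in total tumour, 17.4-fold in IL10+ and 17.1-fold in IL10- than in spleen Treg (adjusted p = 9.3e-06, 5.3e-06 and 6.4e-06 in a fit of all probes). Such a bound sets the brighter group against the higher of the dim probe's own signal and the lowest signal well above background on each array. The 2 probes gave the same direction against spleen. Between the fractions and total tumour Treg they gave opposite signs, as stated below.

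Cd274 encodes PD-L1, the ligand of Pdcd1. It was at 2.28, 1.69 and 1.60 in total tumour and 0.98, 0.29 and 0.99 in spleen Treg, groups that did not overlap. The fractions, at 1.06, 1.68 and 0.67 in IL10+ and 0.89, 1.26 and 1.41 in IL10- Treg, overlapped with the spleen. Cd274 rose in total tumour against spleen Treg by 1.10 ± 0.31 (adjusted p = 0.0163). The call rested on single arrays. Without spleen replicate 2 the difference was 0.87 (adjusted p = 0.0603), and without total tumour replicate 1 it was 0.89 (adjusted p = 0.0656). Another Cd274 probe was not well above background on any array. The probe used is at chr19:29453870-29453929 (+), mm8.

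Btla, a receptor for Tnfrsf14 that is common on resting lymphocytes, ran in the opposite direction. It was at 1.35, 1.63 and 1.40 in spleen Treg and at -1.77, -1.77 and -1.53 in total tumour Treg. Its levels in the fractions were -1.02, -1.26 and -1.30 in IL10- and -3.32, -2.90 and -2.93 in IL10+ Treg. The 4 groups did not overlap with each other, in the order spleen, IL10-, total and IL10+ from high to low. From spleen to total tumour Treg the log2 level of Btla fell by 3.15 ± 0.16 (adjusted p = 1.7e-06). Spleen replicate 2 was no exception here, and without it the difference was -3.06 (adjusted p = 1.02e-05). The probe is at chr16:45171337-45171396 (+), mm8, and on IL10+ replicate 3 it was not well above background.

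Cd160, an immunoglobulin-like receptor held by a lipid anchor and best known on NK and CD8 T cells, was likewise higher in spleen. It was at 0.10, 1.67 and 0.04 in spleen Treg and at -4.33, -3.43 and -3.30 in total tumour Treg. In IL10+ Treg it was -2.87, -3.30 and -3.63 and in IL10- Treg -2.96, -2.89 and -2.50. Replicate 2 was the highest spleen array, and 1 array each of the total and IL10+ groups was not well above background. The Cd160 difference between total tumour and spleen Treg was -4.29 ± 0.44 (adjusted p = 6.3e-05). It was -3.76 (adjusted p = 7.7e-05) with that array left out. The probe spans chr3:96891235-96894220 (-), mm8, or 2986 bases, and so bridges a gap in the alignment.

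Cd200, whose receptor Cd200r1 sits on myeloid cells, was at 1.5, 0.50 and 1.47 in spleen and 0.37, 0.34 and 0.76 in total tumour Treg. The groups overlapped through spleen replicate 2, and the difference of -0.67 ± 0.34 was not called (adjusted p = 0.140). Without that array it was -0.99 (adjusted p = 0.0351). The probe is at chr16:45301649-45301708 (-), mm8.

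Without spleen replicate 2 the count of called receptors in total tumour against spleen Treg was again 7, with Cd200 in place of Cd274. All 3 spleen arrays and 1 total tumour array shared a slide. Within it the differences were 3.71 for Ctla4, 1.91 for Pdcd1, 3.43 for Lag3, 3.61 for Havcr2, 0.84 for Cd274, -2.99 for Btla, -3.90 for Cd160 and -0.39 for Cd200, each in the direction of the full comparison. With slide as a block 3 of the 8 were called, namely Havcr2, Btla and Cd160, while Ctla4 (adjusted p = 0.122), Pdcd1 (adjusted p = 0.111), Lag3 (adjusted p = 0.0522) and Cd274 (adjusted p = 0.159) were not. With normexp Pdcd1 was at 1.58 (adjusted p = 0.0869) and Cd274 at 0.96 (adjusted p = 0.118), and the other 5 calls held. Of all 15544 features 6571 were called as reported, 5434 without spleen replicate 2, 3386 with the slide block and 2150 with normexp.

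**Figure D2:**
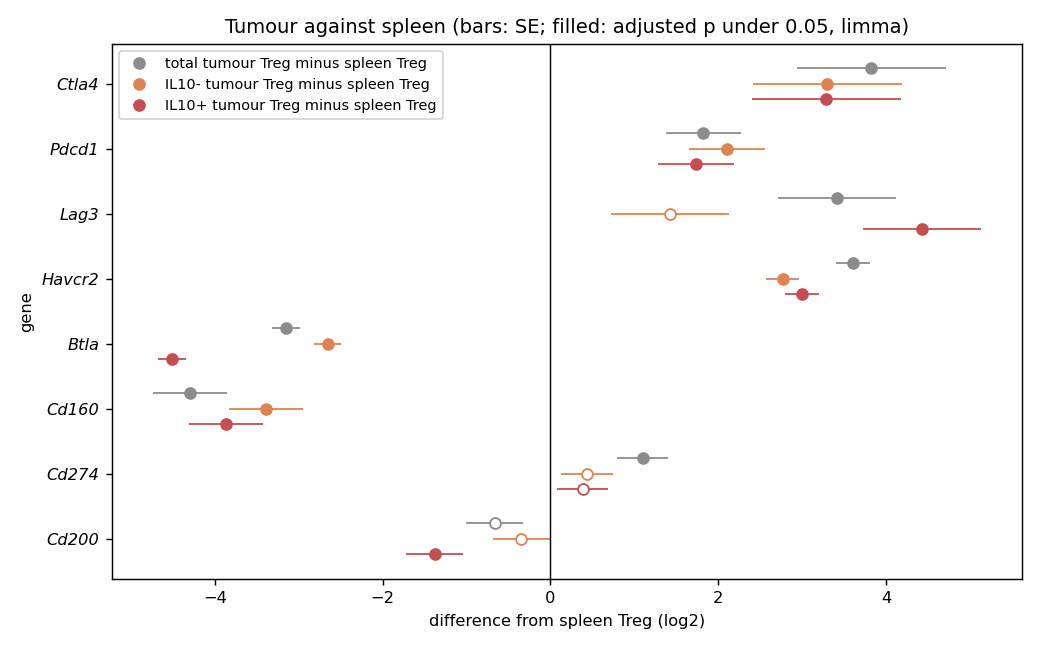
Difference of each tumour group from spleen Treg (x axis, log2) for the 8 measured checkpoint receptors (y axis). Points are limma estimates over 3 arrays per group, bars are SE, and filled points have an adjusted p under 0.05. Ctla4, Pdcd1 and Havcr2 are right of 0 and Btla and Cd160 left of 0 in all 3 tumour groups, and the 3 differences share the same spleen arrays.

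The VERT-X fractions were also set against spleen Treg. Strain, gate and tissue differ together in these comparisons and cannot be told apart, and all 3 tumour comparisons share the spleen arrays. In IL10+ against spleen Treg 7 of the 8 genes were called, 4 higher and 3 lower, where 50.8% of all features were called, 23.9% higher and 26.9% lower. The groups did not overlap for 7 genes, against 57.8% of all features. Lag3 rose by 4.43 ± 0.70 (adjusted p = 5.8e-04), Ctla4 by 3.29 ± 0.89 (adjusted p = 0.0112), Havcr2 by 3.0 ± 0.20 (adjusted p = 3.5e-06) and Pdcd1 by 1.74 ± 0.45 (adjusted p = 0.00931). The genes that fell were Btla (-4.51 ± 0.16, adjusted p = 1.6e-07), Cd160 (-3.87 ± 0.44, adjusted p = 8.0e-05) and Cd200 (-1.38 ± 0.34, adjusted p = 0.00678). The difference of Cd274 was 0.38 ± 0.31 (adjusted p = 0.321). Without spleen replicate 2, Ctla4 was at 1.92 (adjusted p = 2.4e-04), Pdcd1 at 1.07 (adjusted p = 0.00144), Lag3 at 3.78 (adjusted p = 0.00200) and Havcr2 at 2.89 (adjusted p = 2.45e-05). Btla was then at -4.42 (adjusted p = 1.72e-06), Cd160 at -3.34 (adjusted p = 9.41e-05), Cd200 at -1.71 (adjusted p = 0.00221) and Cd274 at 0.15 (adjusted p = 0.719), so that 7 genes were again called. These groups shared no slide, and 1 IL10+ array shared a scan with the spleen arrays. With scan as a block Ctla4 (3.09, adjusted p = 0.0856), Pdcd1 (1.41, adjusted p = 0.108) and Cd200 (-0.87, adjusted p = 0.134) were no longer called, and 4 of the 8 were. With normexp 4 were called as well, without Ctla4, Pdcd1 and Cd160. Of all 15544 features 7903 were called as reported, 6944 without spleen replicate 2, 6946 with the scan block and 5179 with normexp. With only the 6 arrays compared in the fit Ctla4 (adjusted p = 0.0632) and Pdcd1 (adjusted p = 0.0593) were not called, and with T cell genes as the scale Cd200 was at -0.90 (adjusted p = 0.403).

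In IL10- against spleen Treg 5 of the 8 were called, 3 higher and 2 lower, against 49.0% of all features, 24.4% higher and 24.7% lower. The groups did not overlap for 5 genes, against 61.4% of all features. Ctla4 rose by 3.30 ± 0.89 (adjusted p = 0.0116), Havcr2 by 2.77 ± 0.20 (adjusted p = 6.6e-06) and Pdcd1 by 2.11 ± 0.45 (adjusted p = 0.00361). Btla (-2.65 ± 0.16, adjusted p = 2.7e-06) and Cd160 (-3.39 ± 0.44, adjusted p = 1.96e-04) fell. Lag3, at 1.43 ± 0.70, was not called (adjusted p = 0.118), and it was at 2.06 (adjusted p = 0.0363) without IL10- replicate 1, its lowest array. Cd274 at 0.43 ± 0.31 (adjusted p = 0.264) and Cd200 at -0.35 ± 0.34 (adjusted p = 0.417) were not called either. Without spleen replicate 2, Ctla4 was at 1.93 (adjusted p = 2.7e-04), Pdcd1 at 1.44 (adjusted p = 3.3e-04), Havcr2 at 2.66 (adjusted p = 4.09e-05) and Lag3 at 0.78 (adjusted p = 0.378). Btla was then at -2.57 (adjusted p = 1.84e-05), Cd160 at -2.85 (adjusted p = 2.4e-04), Cd274 at 0.20 (adjusted p = 0.628) and Cd200 at -0.68 (adjusted p = 0.109), and 5 genes were again called. Of all 15544 features 7624 were called as reported and 6641 without spleen replicate 2. With only the 6 arrays compared Ctla4 was not called (adjusted p = 0.0598), and with T cell genes as the scale Lag3 was, at 1.84 (adjusted p = 0.0363). These groups shared neither a slide nor a scan, so batch and group cannot be told apart.

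Between the IL10 fractions of VERT-X tumours, the comparison the study's title points to, 1 of the 8 checkpoint receptors was called, where 0.0515% of all features were (8 of 15544), 0.00643% higher and 0.0450% lower. That gene was Btla, lower in IL10+ Treg. The groups did not overlap for 4 of the 8 (Pdcd1, Lag3, Btla and Cd200), against 7.34% of all features. The median difference of the 8 genes was -0.21 and that of all features -0.039.

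The difference of Btla between IL10+ and IL10- Treg was -1.85 ± 0.16 (adjusted p = 0.00816), or 3.62-fold. All 3 IL10+ arrays lay below all 3 IL10- arrays, with the lowest at -3.32 and the highest at -2.90. At these low levels the result changed with the normexp alternative, which corrects the mean signal and adds an offset of 50 signal units. With it the difference was -0.14 (adjusted p = 0.827). The parts of the correction and of the offset in this change were not tested. The call was also lost with T cell genes as the scale (-1.79, adjusted p = 1.0) and without IL10- replicate 2 (-1.89, adjusted p = 0.0616), and with only the 6 arrays of the comparison in the fit (adjusted p = 0.199). The slide was a further limit: IL10+ replicate 2 was the only IL10+ array on the slide of the 3 IL10- arrays, where the difference was -1.71, and with slide as a block the adjusted p was 0.320. Within the scan that held 2 IL10+ and 3 IL10- arrays the difference was -1.72. With T cell scaling, without IL10- replicate 2, with only the 6 arrays and with the slide block, 0 of all 15544 features were called. In those settings the loss of the call was therefore not particular to Btla.

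Lag3 showed the largest difference of the 8 genes in this comparison and was not called. The IL10+ arrays lay between 3.65 and 5.44 and the IL10- arrays between 0.58 and 2.50. The difference of 3.0 ± 0.70, or 8.01-fold, had an unadjusted p of 0.00166 and an adjusted p of 0.418. Its adjusted p stayed between 0.189 and 1.0 over the alternatives, and the difference between 1.86 and 3.59. Within the shared slide it was 3.58 and within the shared scan 3.59. Every IL10+ array was thus above every IL10- array for Lag3. The mean level of 5 T cell genes (Cd3d, Cd3e, Cd3g, Cd247 and Lck) was also lower in replicate 1 of both fractions (4.31 in IL10+ and 4.52 in IL10-) than in their other arrays (5.59 to 6.02), and its part in the low Lag3 of those arrays was not tested. With these genes as the scale the Lag3 difference was 3.06 (adjusted p = 0.355).

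Cd200 was lower in every IL10+ array (0.28, -0.32 and -0.64) than in any IL10- array (1.2, 0.83 and 0.38). The difference of -1.03 ± 0.34 was not called (adjusted p = 0.898), and it was -1.12 within the slide and -1.29 within the scan. Pdcd1 was lower in all 3 IL10+ arrays too, by a smaller margin (-0.37 ± 0.45, adjusted p = 1.0). Havcr2 (0.23 ± 0.20), Cd160 (-0.48 ± 0.44), Cd274 (-0.051 ± 0.31) and Ctla4 (-0.0095 ± 0.89) overlapped between the fractions, each with an adjusted p of 1.0. The SE of Ctla4 uses the estimate of spread shared by all 4 groups, spleen included. The 3 Ctla4 arrays of each fraction ranged only from 4.92 to 5.33 in IL10+ and from 4.84 to 5.29 in IL10- Treg.

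**Figure D3:**
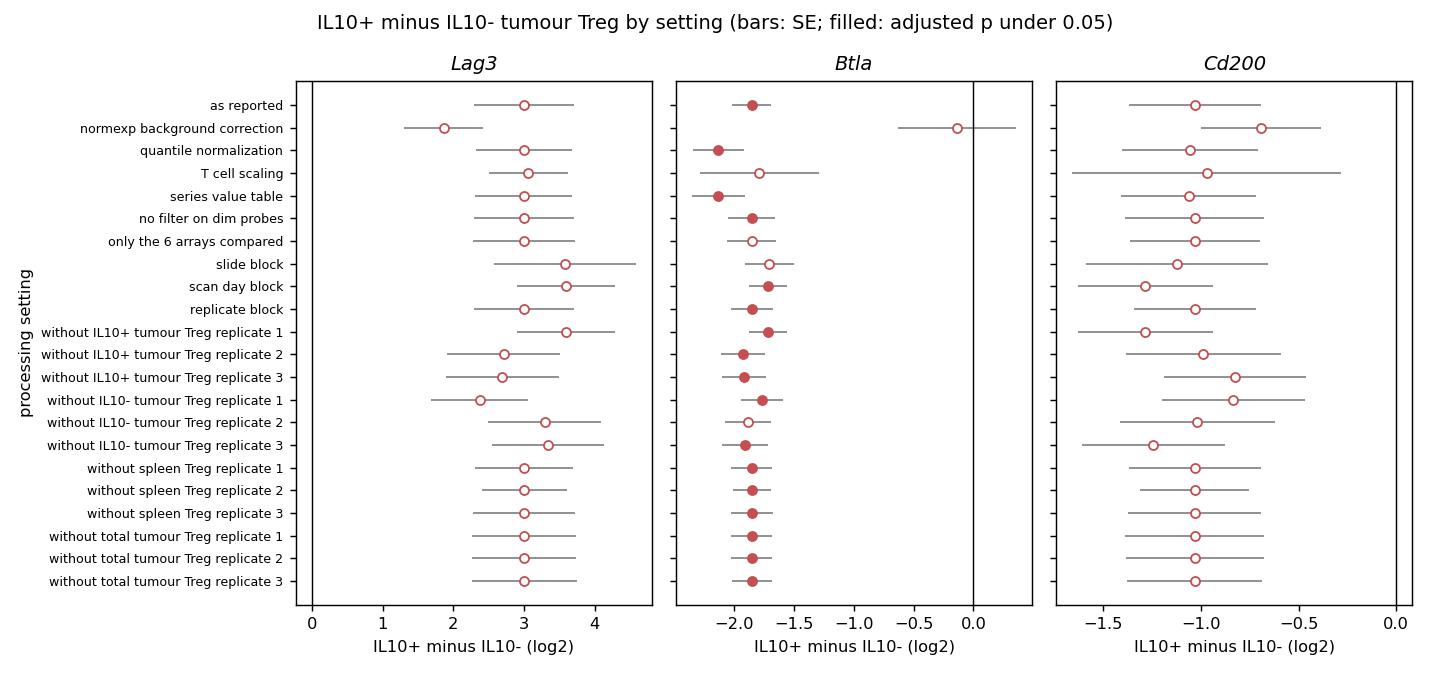
Difference between IL10+ and IL10- tumour Treg (x axis, log2) for Lag3, Btla and Cd200 as reported and under each processing alternative (y axis). Bars are SE and filled points have an adjusted p under 0.05. Lag3 lies right of 0 and is open throughout, Cd200 lies left of 0 and is open throughout, and Btla is filled as reported but near 0 and open with normexp background correction.

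The fractions were further compared with total tumour Treg, which differ from them in strain and gate as well. In IL10+ against total tumour Treg 1 of the 8 was called, where 0.199% of all features were, 0.0708% higher and 0.129% lower. Non-overlapping groups were seen for 4 of them, against 23.1% of all features. Btla was again that gene, lower in IL10+ Treg (-1.36 ± 0.16, adjusted p = 0.0223). The call was lost without any one of 6 arrays (adjusted p from 0.0516 to 0.132), which included all 3 total tumour arrays, IL10+ replicate 3, IL10- replicate 3 and spleen replicate 1. With normexp the difference was 0.049 (adjusted p = 0.946), and the call was lost too with T cell scaling, without the filter on dim probes (adjusted p = 0.132), with only the 6 arrays compared (adjusted p = 0.219) and with slide as a block (adjusted p = 0.188). On the slide that held 1 IL10+ and 2 total tumour arrays the difference was -1.55. Havcr2 was at -0.61 ± 0.20 (adjusted p = 0.180), Cd274 at -0.72 ± 0.31 (adjusted p = 0.275), Cd200 at -0.71 ± 0.34 (adjusted p = 0.319) and Lag3 at 1.01 ± 0.70 (adjusted p = 0.495). On that same slide Lag3 was at -0.17, where the 1 IL10+ array was replicate 1, the lowest of the group. Ctla4 (-0.54), Cd160 (0.42) and Pdcd1 (-0.086) were not called. The further Havcr2 probe was at 0.19 ± 0.38, of opposite sign to the main one.

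In IL10- against total tumour Treg 0 of the 8 were called by limma at an adjusted p under 0.05, where 0.148% of all features were, 0.0772% higher and 0.0708% lower. At an unadjusted p under 0.05 there were 3, against 15.5% of all features (2416 of 15544), namely Havcr2 at -0.84 ± 0.20 (unadjusted p = 0.00183, adjusted p = 0.104), Btla at 0.49 ± 0.16 (unadjusted p = 0.0129, adjusted p = 0.193) and Lag3 at -1.99 ± 0.70 (unadjusted p = 0.0181, adjusted p = 0.221). By the further Havcr2 probe the difference was 0.16 ± 0.38, of opposite sign to that of the main probe. The groups did not overlap for 7 of the 8, against 27.7% of all features. These groups never shared a slide or a scan, so batch and group cannot be told apart for them. For Lag3 the total tumour arrays (3.52 to 4.11) lay above the IL10- arrays (0.58 to 2.50) and within the range of the IL10+ arrays (3.65 to 5.44) or just below it.

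The order of the groups therefore differed between genes. Ctla4 ran from total tumour (5.66 ± 0.31, SD, n = 3) over IL10- (5.13 ± 0.26) and IL10+ (5.13 ± 0.20) to spleen (1.84 ± 2.37), and only the step to spleen was called. Pdcd1 ran from IL10- (5.07 ± 0.07) over total (4.79 ± 0.10) and IL10+ (4.70 ± 0.29) to spleen (2.96 ± 1.16), again with only the step to spleen called. Lag3 ran from IL10+ (4.83 ± 1.03) over total (3.82 ± 0.29) and IL10- (1.83 ± 1.09) to spleen (0.40 ± 1.14), and no step between neighbours was called. Havcr2 ran from total (1.99 ± 0.22) over IL10+ (1.39 ± 0.14) and IL10- (1.16 ± 0.32) to spleen (-1.61 ± 0.20), and only the last step was called. That order holds for the main Havcr2 probe, since by the further probe both fractions had a higher mean than total tumour Treg. Of the genes highest in spleen, Btla ran from spleen (1.46 ± 0.15) over IL10- (-1.19 ± 0.15) and total (-1.69 ± 0.14) to IL10+ (-3.05 ± 0.23), with the first and last steps called. Cd160 ran from spleen (0.60 ± 0.92) over IL10- (-2.79 ± 0.25) and IL10+ (-3.27 ± 0.38) to total (-3.69 ± 0.56), with the first step called. Cd274 (total 1.85 ± 0.37, IL10- 1.19 ± 0.27, IL10+ 1.14 ± 0.51, spleen 0.75 ± 0.40) and Cd200 (spleen 1.15 ± 0.57, IL10- 0.81 ± 0.41, total 0.49 ± 0.24, IL10+ -0.23 ± 0.47) had no neighbouring step that was called.

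Profiles were also compared over the 12 arrays by the root-mean-square difference of levels, each profile centred on its own mean, and a gene's own spread is the root mean square of its centred levels. This is a description, and the 12 arrays share the 4 groups, so any gene that differs between tumour and spleen can come out close. Among the 8 genes the closest pairs were Pdcd1 and Cd274 (0.77), Pdcd1 and Havcr2 (0.81) and Btla and Cd160 (0.83). This distance also depends on how much each gene varies. That of Pdcd1 and Cd274 exceeds the own spread of Cd274 (0.51), so it does not show that these 2 share a profile. Neighbours were sought among the named genes in the fit, with predicted genes and clones left out. Those nearest to Ctla4 were Tnfrsf9, a co-stimulatory receptor, at 0.35 and its own ligand Cd80 at 0.36. The spread of Ctla4 itself was 1.81. Nearest to Pdcd1 were Tnfrsf18, which encodes the Treg receptor GITR, at 0.15 and Ttc39c at 0.17 (own spread 0.96). Nearest to Havcr2 were the metalloprotease Adam8 at 0.28 and the transcriptional regulator Crem at 0.29 (own spread 1.40). For Lag3, which had the largest own spread (1.89), the nearest were Fabp12 at 0.83 and Frmd5 at 0.88. Btla was nearest to Pacsin1 at 0.36 and Clec2i at 0.39 (own spread 1.64), and Cd160 to the carbonic anhydrase Car2 at 0.49 and Evl at 0.53 (own spread 1.76). Cd274 was nearest to the metalloprotease Adam19 at 0.19 and Rab8b at 0.20 (own spread 0.51), and Cd200 to Fam118b and Pdzk1ip1, both at 0.33 (own spread 0.62). Over the 11 arrays without it, 7 of the 16 neighbours named here were among the 5 nearest of their gene. Tnfrsf9 was then at 0.36 and Cd80 at 0.27 from Ctla4, whose own spread fell to 0.87, and the nearest was Rap2a at 0.22. From Pdcd1 (own spread 0.51) Tnfrsf18 was at 0.16 and Ttc39c at 0.15, and the nearest was Fignl1 at 0.078. The closest pairs of receptors were then Ctla4 and Havcr2 (0.40) and Ctla4 and Pdcd1 (0.49). Pdcd1 and Cd274 were at 0.56, above the own spread of Pdcd1 (0.51) and of Cd274 (0.44).

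The partners of the checkpoint receptors were read from 6 lists. The counts against spleen stand beside shares of all features of 22.0% higher and 20.3% lower in total tumour Treg, and of 18.8% and 16.2% without spleen replicate 2. Of 15 ligands and counter-receptors, 4 rose and 1 fell in total tumour against spleen Treg, with a list median of 0.060 against -0.013 over all features. With spleen replicate 2 left out 2 rose and 1 fell. Nectin3, an adhesion molecule of the nectin family, was not well above background in spleen Treg and was at least 10.8-fold higher in total tumour Treg (adjusted p = 1.05e-04). Cd80, a ligand of Ctla4, rose by 3.51 ± 0.71 (adjusted p = 0.00308), and Ceacam1, a partner of Havcr2, fell (-2.69 ± 0.49, adjusted p = 0.00180). A list of 5 co-stimulatory genes holds receptors that share ligands with checkpoint receptors or transmit co-stimulation, and Tnfsf14, a ligand of Tnfrsf14. Of these 1 rose and 3 fell (median -1.61), or 1 and 2 without that array. Icos rose by 2.34 ± 0.39 (adjusted p = 0.00117). Cd96 (-2.31 ± 0.32, adjusted p = 3.4e-04) and Cd226 (-1.61 ± 0.36, adjusted p = 0.00575), which share ligands with Tigit, fell.

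Of 8 phosphatases and adaptors, 0 rose and 3 fell (median -0.64) in the same comparison, where 22.0% of all features rose and 20.3% fell. They were the adaptor Sh2d1a (-1.74 ± 0.26, adjusted p = 5.98e-04), the Ctla4 trafficking adaptor Trat1 (-1.47 ± 0.27, adjusted p = 0.00181) and the kinase Csk (-0.93 ± 0.31, adjusted p = 0.0374). Csk was not called without spleen replicate 2 (-0.94, adjusted p = 0.0785), which left 2 that fell. Of 11 other inhibitory receptors with a probe, 2 rose and 1 fell (median 0.16). Lilrb4a, a receptor of myeloid cells, rose by 3.62 ± 0.41 (adjusted p = 1.08e-04) and Klrg1, a receptor of mature effector cells, by 4.09 ± 1.44 (adjusted p = 0.0429). Klrg1 was at 5.53, 4.71 and 5.13 in total tumour and 3.25, -3.37 and 3.22 in spleen Treg. Its low array was again spleen replicate 2, without which the difference was 1.89 (adjusted p = 0.00592). Siglecg, a receptor of B cells, was at least 46.5-fold lower in total tumour Treg (adjusted p = 2.6e-05). Of 14 transcription factors known to act on checkpoint receptor genes, 7 rose and 1 fell (median 1.41), or 6 and 0 without that array, where the list median was 1.02. Those with the smallest p were Nfatc2 (3.89 ± 0.61, adjusted p = 7.8e-04), a calcium-regulated factor, Nr4a2 (2.33 ± 0.40, adjusted p = 0.00131), an orphan nuclear receptor, and Prdm1 (2.03 ± 0.45, adjusted p = 0.00503), which encodes Blimp-1. Of the 8 genes of the T cell receptor complex, 0 were called by limma (median -0.35) and 0 had an unadjusted p under 0.05, against 50.2% of all features. Those with the smallest p were Cd247 (-0.86 ± 0.41, adjusted p = 0.123), Lat (-1.05 ± 0.52, adjusted p = 0.133) and Cd3d (-0.38 ± 0.28, adjusted p = 0.303).

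Between the IL10 fractions 0 of the 61 genes of these 6 lists were called by limma, where 0.0515% of all features were, and 3 (Cd226, Cd96 and Trat1, named after their values were seen) had an unadjusted p under 0.05, against 4.63% of all features. The medians were 0.050 for ligands, -1.2 for co-stimulatory genes, -0.26 for phosphatases and adaptors, 0.20 for other inhibitory receptors, -0.097 for transcription factors and 0.015 for the T cell receptor complex. IL10+ against total tumour Treg gave 1 call, lower, among the phosphatases and adaptors (0.0708% of all features were higher and 0.129% lower). IL10- against total tumour Treg gave 0, where 0.148% of all features were called, and 6 of the 61 had an unadjusted p under 0.05, against 15.5% of all features. Against spleen Treg, where 23.9% of all features were higher and 26.9% lower in IL10+ and 24.4% and 24.7% in IL10- Treg, both fractions had 3 ligands higher and 2 lower, and 1 co-stimulatory gene higher and 3 lower. Phosphatases and adaptors were lower for 6 genes in IL10+ and 5 in IL10- Treg. Other inhibitory receptors were higher for 3 and lower for 1 in IL10+ Treg, and higher for 1 and lower for 1 in IL10- Treg. Transcription factors were higher for 5 and lower for 2 in IL10+ Treg and higher for 5 and lower for 0 in IL10- Treg, and 2 genes of the T cell receptor complex were lower in each. Without spleen replicate 2 both had 3 ligands higher and 1 lower and 1 gene of the T cell receptor complex lower. Other inhibitory receptors were then higher for 4 in IL10+ and 3 in IL10- Treg, Klrg1 among them (1.40, adjusted p = 0.0178, and 1.23, adjusted p = 0.0320), and lower for 1 in each. Phosphatases and adaptors were then lower for 5 and 4, and co-stimulatory genes for 3 and 2, with 1 higher in each. Transcription factors were then higher for 6 and lower for 4 in IL10+ Treg, and higher for 4 and lower for 1 in IL10- Treg.

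Markers of other cell types moved with tissue. Their summed signal over the 10 macrophage and monocyte markers, in units of the 75th percentile, was 349 to 660 in total tumour, 482 to 808 in IL10+, 381 to 568 in IL10- and 42.3 to 102 in spleen Treg, and 9 of 10 were called higher in total tumour against spleen, where 22.0% of all features were, or 8 of 10 without spleen replicate 2. Trem2 was not well above background on any spleen array. The 6 B cell markers summed to 45.1 to 85.2 in spleen and 1.53 to 4.24 in the tumour groups, and 6 of 6 were called lower in total tumour Treg with or without that array, where 20.3% of all features were lower with it. Cd79a and Pax5 were not well above background in any tumour group. The 6 CD8 T cell and NK cell markers summed to 25.7 to 60.3 in spleen, 107 to 138 in total tumour, 76.6 to 141 in IL10+ and 48.0 to 87.6 in IL10- Treg, with 1 called higher and 3 lower in total tumour against spleen (2 lower without that array). Only 1 of the 6 had a positive difference there, and their median was -1.29, or -0.89 without that array. The 6 fibroblast markers summed to 84.4 to 265 in the tumour groups and 0.289 to 3.05 in spleen, and the 4 plasma cell markers to 13.0 to 16.5 in the tumour groups and 35.9 to 138 in spleen. Markers of dendritic, endothelial, neutrophil and epithelial cells each summed to at most 3.85 on any array. Havcr2 and Cd274 are also expressed by myeloid cells, Btla and Cd200 by B cells, and Cd160 by NK and CD8 T cells. The sort was gated on CD11b low CD3+ CD4+ cells, and how far the gate removed these other cells was not tested here. The part of these cells in the differences of those genes from spleen was not tested. Between the IL10 fractions, 10 of 10 macrophage markers were positive with a median of 0.42. Of the CD8 T cell and NK cell markers 4 of 6 were positive (median 0.50), and of the B cell markers 3 of 6 (median -0.15). By limma 0 of these markers were called, where 0.0515% of all features were. In replicates 1, 2 and 3 the CD8 T cell and NK cell markers summed to 76.6, 133 and 141 in IL10+ and 48.0, 87.6 and 77.8 in IL10- Treg. The B cell markers summed to 1.53, 2.61 and 2.75 in IL10+ and 2.61, 4.24 and 3.51 in IL10- Treg. The part of these cells in the differences of Lag3, Btla and Cd200 was not tested. With T cell genes as the scale in place of the 75th percentile, Ctla4, Pdcd1, Lag3 and Havcr2 still rose and Btla and Cd160 still fell in total tumour against spleen Treg, while Cd274 was at 1.51 (adjusted p = 0.0684).

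**Figure D4:**
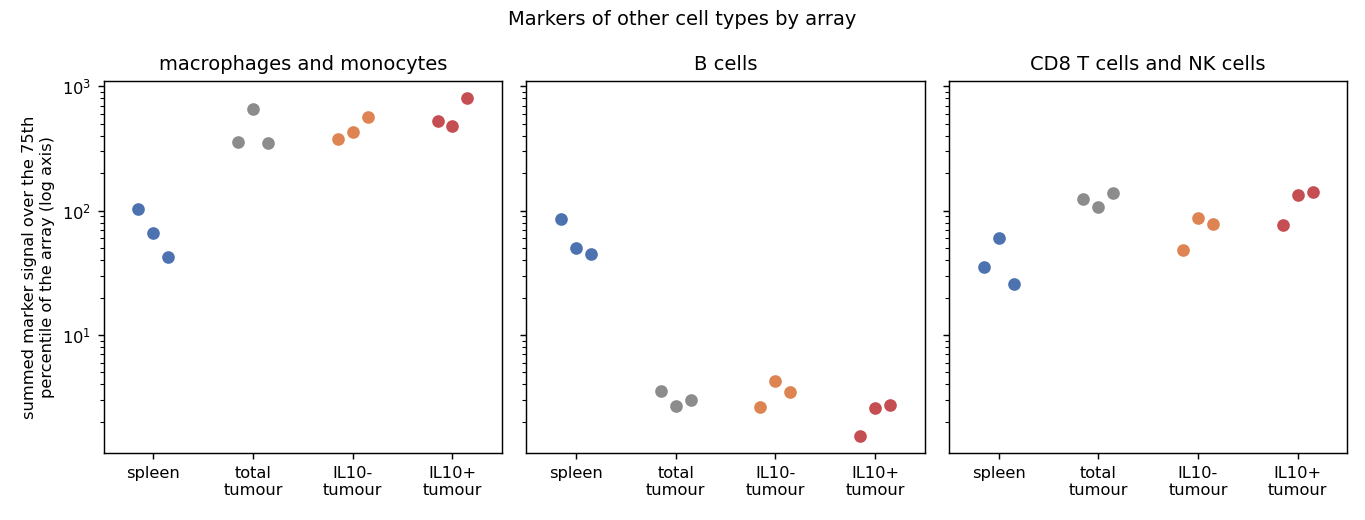
Summed signal of markers of macrophages and monocytes, of B cells and of CD8 T and NK cells on each array (y axis, multiples of the 75th percentile of the array, log axis) in the 4 groups (x axis). Macrophage markers lie between 349 and 808 on tumour arrays and between 42.3 and 102 on spleen arrays, and B cell markers between 1.53 and 4.24 on tumour arrays and between 45.1 and 85.2 on spleen arrays.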

How the data were processed

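Labels describe 3 experiments per population, and the replicate numbers are those of the labels. Each scanner file gives a deposited intensity per spot in 1 channel, made with Agilent Feature Extraction 9.5.3.1, background-subtracted and not normalized between arrays, per the file headers, whereas the labels name biotin-labelled cRNA. Which describes the labelling was not settled. The deposited value table is on a log10 scale: its slope on log10 of the intensity was 0.913 to 1.22 over the arrays, near 1 as for that base (column medians 1.33), and the sources used here do not give its normalization. It served as an alternative only.

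Control spots and spots marked as outliers were left out, and log2 values of repeated spots were averaged per probe (43379 spots, 41174 probes). Probes were named through the RefSeq table of GRCm38.p6, by accession for 23374, by symbol for 6733 and by synonym for 2907, while 1672 kept the file's name and 6488 had none. A feature entered the fit if well above background on at least 3 arrays. All 12 arrays were fitted with limma 3.58.1 (lmFit, eBayes) in R 4.3.3 with the data.table package 1.17.8, in 6 contrasts with Benjamini-Hochberg adjustment within each. Plots used Python 3.11.15 and matplotlib 3.10.9. The steps were tested on simulated data. The number of arrays limits the precision.

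The genes and lists were chosen with earlier results of these data known. Named were the 9 receptors, any listed gene called between the IL10 fractions, the 3 listed genes with the smallest p in total tumour against spleen Treg, and the 2 nearest profiles of each receptor. Genes of other cell types were named as markers of their lists. Alternatives were normexp background correction (offset of 50 signal units), quantile normalization, T cell scaling (Cd3d, Cd3e, Cd3g, Cd247, Lck) and the value table. Further ones were no filter, fewer arrays, other probes, and slide, scan or replicate number as a block.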

Additional observations from a re-analysis of the deposited data

How the results depend on the processing

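Btla, Cd160, Havcr2, Ctla4, Pdcd1 and Lag3 kept their direction in total tumour against spleen Treg under every alternative run. Counts of called receptors changed as follows. Between the IL10 fractions the count of 1 became 0 with normexp, T cell scaling and only the 6 arrays compared. It also became 0 with slide as a block and with the replicate block with only 6 arrays. With an array left out it was 0 to 1 (0 without IL10- replicate 2). Of all 15544 features 8 were called as reported, 3 with normexp and 0 with the other settings named, also without IL10- replicate 2. In IL10+ against total tumour Treg the count of 1 became 0 with normexp, T cell scaling, no filter and only 6 arrays. It also became 0 with the slide block and the replicate block, and was 0 to 1 with an array left out. Of all 15544 features (27668 with no filter) 31 were called as reported and 1 to 3 with the settings named. In IL10+ against spleen Treg the count of 7 became 4 with normexp, 5 with only 6 arrays and 6 with T cell scaling. It became 2 with the slide block and 4 with the scan block. Of all 15544 features 7903 were called as reported. In the same order of settings 5179, 6170, 3244, 2395 and 6946 were. In total tumour against spleen Treg 7 became 5 with normexp, 6 with T cell scaling and 3 with the slide block. It ranged from 6 to 7 with an array left out. Of all 15544 features 6571 were called as reported, 2150 with normexp, 2356 with T cell scaling and 3386 with the slide block. With an array left out 5080 to 7167 were. In IL10- against spleen Treg 5 became 4 with only 6 arrays, 6 with T cell scaling, 2 with the slide block and 3 with the scan block. It ranged from 5 to 6 with an array left out. Of all 15544 features 7624 were called as reported. In the same order of settings 7008, 2989, 1208 and 5359 were, and 6431 to 8279 with an array left out. Fewer arrays and more terms leave fewer degrees of freedom, and the causes of the changed counts were not tested. The scan block, the replicate block with only 6 arrays, and the lists, markers and profiles without spleen replicate 2 were chosen after seeing the data.

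These differences changed sign, none of them called as reported except Btla. With normexp, IL10+ minus IL10- was -0.26 for Havcr2 and 0.77 for Cd160, and Btla in IL10+ minus total tumour was 0.049. With quantile normalization Ctla4 was 0.051 between the fractions, and Cd160 was -0.11 and Pdcd1 0.041 in IL10+ minus total. The value table gave 0.079, -0.12 and 0.031 for the same 3. T cell scaling gave 0.011 for Cd274 and 0.053 for Ctla4 between the fractions and 0.068 for Cd200 in IL10- minus spleen; it moved the median of all features against spleen to between 0.397 and 0.415. With the slide block Cd274 was 0.49 and Ctla4 0.20 between the fractions, Lag3 -0.17 in IL10+ minus total, Pdcd1 -0.17 in IL10- minus total, Cd274 -0.075 in IL10+ minus spleen, and Cd274 -0.56, Lag3 -0.32 and Cd200 0.66 in IL10- minus spleen. With the scan block Ctla4 was 0.091 between the fractions, Lag3 -0.17 in IL10+ minus total, Pdcd1 -0.21 in IL10- minus total, and Lag3 -0.35 and Cd200 0.41 in IL10- minus spleen. With an array left out, Ctla4 ranged from -0.16 to 0.091 and Cd274 from -0.32 to 0.18 between the fractions, and Pdcd1 from -0.17 to 0.079 in IL10+ minus total. By its further probe Havcr2 was 0.19 in IL10+ minus total and 0.16 in IL10- minus total.

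Same-numbered arrays of the IL10 fractions had correlations of deviations of 0.41, 0.43 and -0.24, and differently numbered ones from -0.57 to 0.30. Replicates 1 and 2 thus correlated most with their own number, and replicate 3 did not. Whether the numbers pair the arrays was not settled, and the main fit did not pair them. With the replicate block Btla between the fractions had an adjusted p of 0.0294, or 0.446 with only 6 arrays, and in IL10+ against total tumour Treg 0.0616; it changed no other call. Signal over background limits Btla and Cd160 in tumour Treg, which were not well above it on 1 and 2 arrays. Same-numbered differences of Lag3 between the fractions were 3.07, 2.99 and 2.94.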
